A study of Homo sapiens with 4 samples.

Results

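Collagen genes were examined in RNAseq data of T24 cells, a human bladder carcinoma line. They were chosen by name, as every gene whose symbol consists of COL, a type number, the letter A and a chain number, except COL17A1. This gave 43 of the 57879 genes in the files, and 354 of the 195700 transcripts. By the shape of the assembly that the chains form, 11 were fibrillar, 9 network-forming, 10 FACIT (fibril-associated collagens with interrupted triple helices), 5 beaded filament, 1 anchoring fibril, 2 multiplexin and 3 transmembrane, while 2 fitted none of these classes.

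Collagens are extracellular matrix proteins in which polypeptide chains with regularly spaced glycine wind into a triple helix. Fibrillar chains build tensile fibrils, network chains build the sheet of the basement membrane, and FACIT, beaded filament and anchoring fibril chains tie these structures to each other. In the bladder wall, fibroblasts and muscle cells lay down most interstitial collagen, while urothelial cells contribute to the basement membrane beneath them.

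The study asked how the catalytic domain of TET1 (TET1-CD), an enzyme that oxidises 5-methylcytosine in DNA, alters T24 cells. The 2 EV libraries, titled as control, came from cells carrying an empty vector. The 2 TET1-CD libraries came from cells that stably expressed the FLAG-tagged domain from a lentiviral plasmid. The paper describes puromycin selection of infected cells and culture in RPMI medium with serum. Whether the sequenced cells were pools or clones is not stated. DNA methylation was not measured in these libraries, and no library of the catalytically inactive domain was analysed here. Nothing in the labels says that libraries of a group came from separate cultures, so the p-values measure only the spread between these libraries, which may be technical.

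Library totals were between 17442143 and 20295266 estimated counts. TET1 itself had counts of 111 and 83 in EV and 2939 and 3310 in TET1-CD, a log2 fold change of 5.02 (SE 0.08, edgeR adjusted p = 4.9e-10), which matched the labels. Reads of the introduced domain and of the endogenous gene on chromosome 10 cannot be told apart in this count. Of the 15 urothelial and epithelial markers, 7 passed the filter on low counts, with KRT7, KRT8 and KRT18 between 10759 and 22638 counts, whereas KRT5, KRT13 and KRT20 were at 0 in all libraries. Normalised counts, scaled by edgeR to a common library size (TMM), summed over this list were 44187 and 43833 in EV and 49907 and 49231 in TET1-CD, and 4 of its 7 tested genes rose (10.0% of all genes tested rose, and 9.61% fell). Of 10 fibroblast markers 2 passed the filter, and MFAP5 and PI16 were at 0. Their summed normalised count was 2279 and 2674 in EV and 3612 and 3762 in TET1-CD, nearly all of it from FBLN1, which rose by 0.57 on the log2 scale (edgeR adjusted p = 0.000695), and the part of these markers in the collagen results was not tested. Of the markers of other cells, 1 of 6 endothelial genes, 3 of 6 smooth muscle genes and 3 of 8 leukocyte genes were tested. Among these, ACTG2, a smooth muscle actin, rose from 39 and 36 counts to 152 and 145 (edgeR adjusted p = 7.8e-05). ITGAM, a myeloid integrin, dropped from 22 and 29 counts to 3 and 8 (log2 fold change -2.19, edgeR adjusted p = 0.0165). Only the EV libraries carried ITGAM past the filter, so this gene could be tested only by differing. In bulk RNA, more cells of one kind and more RNA per cell cannot be told apart.

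Collagen transcripts took 0.266% and 0.272% of the counted fragments in EV, and 0.307% and 0.310% in TET1-CD. Of the 43 genes, 21 passed the filter on low counts and were tested among 14573 genes. With an adjusted p under 0.05 and a change of 2-fold or more required, 6 collagen genes rose in TET1-CD cells, against a background of 2.72% of all genes tested in that direction, and 0 fell, against 1.04%. These 6 were COL1A1, COL5A1, COL4A6, COL8A2, COL6A3 and COL9A2. Without the fold limit, 10 of the 21 rose (background 10.0%) and 5 fell (background 9.61%), while 6 did not pass. Of the 6 with a rise of at least 2-fold, COL5A1, COL6A3 and COL8A2 passed the filter only through their TET1-CD libraries, so they could be tested only by differing. Without them, 3 of 18 rose at least 2-fold, and the median log2 fold change was 0.09 in place of 0.28. The median over all genes tested was 0.00. That median and the share of 2.72% still include genes that passed through a single group, so neither is a like background for the 18. DESeq2 and limma-voom also gave 0 collagen genes lower by at least 2-fold, and at an unadjusted p under 0.05 edgeR gave 0 as well.

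The remaining 22 genes had at most 7 counts in any library. COL20A1, COL22A1, COL9A1 and COL23A1 were at 0 in all 4 libraries, and 18 had at least 1 count. A total of 0 in a library allows up to 3 counts, for counting error only, so small differences in the genes at 0 were not detectable at this depth. The other genes were also too low to compare reliably. With no filter on low counts, 39 collagen genes were tested, and only the same 6 genes were called at 2-fold.

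**Figure D1:**
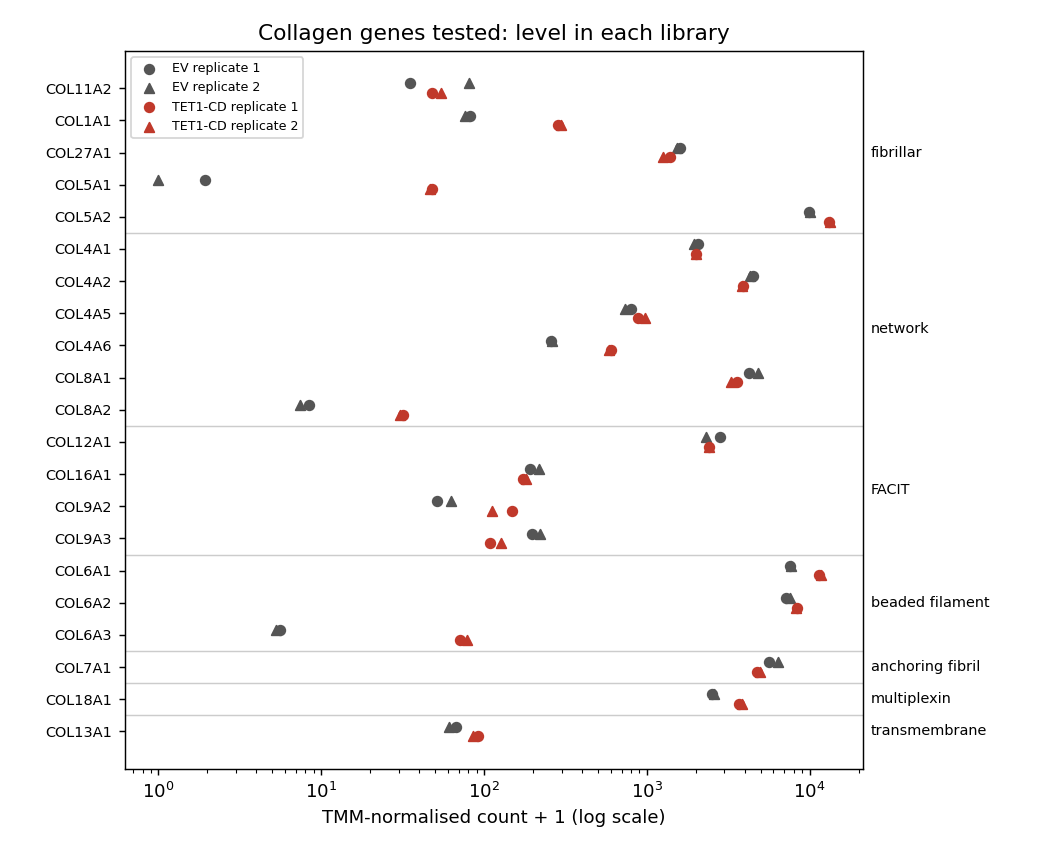
TMM-normalised count plus 1 (log scale, horizontal axis) of the 21 collagen genes tested, with 1 point per library (grey EV, red TET1-CD; circles replicate 1, triangles replicate 2) and genes grouped by class. COL5A1, COL6A3 and COL8A2 lie below 10 counts in EV and between 29.5 and 77.9 in TET1-CD, and most abundant genes shift by far less.

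The 5 collagens with the highest mean FPKM (fragments per kilobase of transcript, scaled to library size) were COL6A1 at 144, COL6A2 at 129, COL5A2 at 89.6, COL8A1 at 69.8 and COL7A1 at 44.8 FPKM. Together they held between 69.5% and 72.3% of all collagen counts in a library. None of the genes that rose at least 2-fold was among these 5.

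Promoter sequence is shown for those genes with a rise of at least 2-fold that had a promoter entry. TET1 acts on cytosine in CG dinucleotides, and the number of such sites differs among these genes. The RefSeq promoter table (GRCh38.p14) held windows for 31 of the 43 collagen genes, COL4A6, COL5A1, COL6A3, COL8A2 and COL9A2 among them. It held none for COL1A1, which also rose at least 2-fold, so the CG numbers leave that gene out. In the 250 bases before the annotated start, COL8A2 had 35 CG, COL5A1 29, COL9A2 22, COL4A6 7 and COL6A3 3, beside a median of 11 (quartiles 3 and 23) over 27305 windows of the same length. The median was 18.5 in the 16 collagens that were tested and 16 in the 15 that were not. Each window matched GRCh37, the build of the files, at 1 place. The COL4A6 window, chrX:107682689-107682938, lies by the start of ENST00000372216. ENST00000334504, which held 85.5% of COL4A6 counts over all libraries, starts downstream of this window, at 107681652, so the COL4A6 window does not end at the start of its main form. The COL9A2 window lies inside the annotated gene, with 58 of its bases exonic. The COL6A3 window overlaps its gene, with 93 bases exonic. Printed below, 5′ to 3′ on the gene's strand and with CG in capitals, is the longest stretch of each window outside annotated exons, at chrX:107682728-107682938 (minus strand) for COL4A6, chr9:137533399-137533648 (plus) for COL5A1, chr2:238322972-238323057 (minus) for COL6A3, chr1:36590824-36591073 (minus) for COL8A2 and chr1:40783061-40783208 (minus) for COL9A2.
COL4A6: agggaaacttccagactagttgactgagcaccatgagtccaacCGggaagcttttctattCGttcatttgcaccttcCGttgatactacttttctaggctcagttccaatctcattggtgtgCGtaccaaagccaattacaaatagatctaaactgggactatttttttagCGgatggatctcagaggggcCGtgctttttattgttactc
COL5A1: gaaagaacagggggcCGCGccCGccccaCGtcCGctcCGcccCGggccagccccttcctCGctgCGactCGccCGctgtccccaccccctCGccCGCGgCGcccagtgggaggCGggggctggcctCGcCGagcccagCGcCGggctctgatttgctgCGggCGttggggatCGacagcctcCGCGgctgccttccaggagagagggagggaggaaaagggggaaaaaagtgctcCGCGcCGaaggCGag
COL6A3: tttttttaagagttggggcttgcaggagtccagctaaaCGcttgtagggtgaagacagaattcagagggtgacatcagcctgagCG
COL8A2: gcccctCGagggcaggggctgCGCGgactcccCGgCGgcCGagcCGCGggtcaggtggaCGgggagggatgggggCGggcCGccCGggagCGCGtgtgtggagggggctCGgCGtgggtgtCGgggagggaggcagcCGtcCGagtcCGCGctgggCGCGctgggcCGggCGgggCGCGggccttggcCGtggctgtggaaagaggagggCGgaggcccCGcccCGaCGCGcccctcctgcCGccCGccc
COL9A2: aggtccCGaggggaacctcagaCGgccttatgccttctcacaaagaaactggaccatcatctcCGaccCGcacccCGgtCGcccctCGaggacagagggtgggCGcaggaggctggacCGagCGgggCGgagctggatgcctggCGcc
The printed stretches differ in length. Those of COL8A2 and COL5A1 held 35 and 29 CG in 250 bases each, and that of COL9A2 held 12 in 148 bases. The COL4A6 stretch held 6 in 211 bases and the COL6A3 stretch 2 in 86 bases. Of the 31 collagen windows, 4 held TATAAA, 8 CCAAT and 18 GGGCGG on either strand, beside 11.1%, 33.0% and 42.3% of all windows. These matches describe the letters only.

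Among the fibrillar collagens, which form the fibrils of connective tissue, 5 of 11 genes were tested, 3 rose and 1 fell. In this and the other classes the background is again 10.0% of genes higher and 9.61% lower, and the classes hold too few genes for a comparison with it. COL1A1, the major chain of type I collagen (ENSG00000108821, chromosome 17, 48260650 to 48278993, GRCh37), had counts of 88 and 70 in EV and 266 and 314 in TET1-CD. Both TET1-CD libraries lay above both EV libraries, by 3.70-fold in the fit (log2 1.89, SE 0.13, edgeR adjusted p = 1.0e-05). COL1A2, its partner chain in type I collagen, had at most 2 counts in any library, so that COL1A1 was the type I chain detected in these cells. By the ratio of mean FPKM plus 0.1 the log2 difference of COL1A1 was smaller, at 1.46.

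COL5A1 and COL5A2 encode chains of type V collagen, a minor component that helps to set the diameter of type I fibrils. COL5A1 (ENSG00000130635, chromosome 9, 137533620 to 137736686) had counts of 1 and 0 in EV and 44 and 48 in TET1-CD. The ratio of the pooled counts was 93.0, with an exact 95% interval from 16.3 to 3711 that covers counting error only (edgeR adjusted p = 0.000166), and the EV level was at the limit of detection. By the ratio of mean FPKM plus 0.1 the log2 difference was 2.43. COL5A2 (ENSG00000204262, chromosome 2, 189896622 to 190044605) was already abundant, with normalised counts of 9910 and 10020 in EV and 13106 and 13283 in TET1-CD, and rose by 0.41 on the log2 scale (SE 0.05, edgeR adjusted p = 0.000593). COL5A3, another type V chain, had between 2 and 6 counts and was not tested.

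COL27A1, a fibrillar collagen of cartilage (chromosome 9, 116917840 to 117074791), had normalised counts of 1599 and 1538 in EV and 1381 and 1264 in TET1-CD. It fell by 0.25 on the log2 scale (SE 0.06, edgeR adjusted p = 0.0244), a call that DESeq2 did not make (adjusted p = 0.0616) and that was lost without TET1-CD replicate 1 (adjusted p = 0.0919) or without TET1-CD replicate 2 (adjusted p = 0.319). COL11A2, a chain of the cartilage collagen type XI, had normalised counts of 34.1 and 79.7 in EV and 46.7 and 53.2 in TET1-CD, so that the EV libraries enclosed the TET1-CD ones (log2 fold change -0.16, SE 0.35, edgeR adjusted p = 0.795). Of the 6 fibrillar genes not tested, COL3A1, the type III chain of distensible tissues, had no counts in either EV library and counts of 4 and 1 in TET1-CD, and COL2A1, COL11A1 and COL24A1 had at most 3 counts in any library. The summed normalised count of the class was 11678 ± 66.5 in EV and 14918 ± 53.4 in TET1-CD (SD, n = 2), most of it from COL5A2.

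The network-forming collagens included the chains of type IV collagen, the scaffold of basement membranes, and of type VIII collagen, which forms hexagonal lattices. Here 6 of 9 genes were tested, 3 rose and 2 fell, beside 10.0% and 9.61% of all genes. Type IV genes lie in head-to-head pairs, and whether the members of a pair changed by different amounts was not tested. COL4A1 and COL4A2, which encode the widespread form of the network, overlap by 1338 bases at their 5′ ends on chromosome 13. COL4A1 (110801318 to 110959496) had normalised counts of 2050 and 1958 in EV and 2011 and 2006 in TET1-CD. Its log2 fold change was 0.00 (SE 0.06, edgeR adjusted p = 0.981), and 2 SE on either side reached from -0.11 to 0.11. COL4A2 (110958159 to 111165374) had normalised counts of 4464 and 4282 in EV and 3906 and 3824 in TET1-CD, and fell by 0.18 on the log2 scale (SE 0.05, edgeR adjusted p = 0.0405). This small fall did not pass with DESeq2 (adjusted p = 0.0684), with library size as the only scaling (adjusted p = 0.054), when transcripts without a defined coding sequence were left out (adjusted p = 0.0539), or without TET1-CD replicate 1 or 2 (adjusted p = 0.289 and 0.361). No exonic base was shared by COL4A1 and COL4A2.

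COL4A5 and COL4A6, chains of the basement membrane of smooth muscle and some epithelia, start 347 bases apart on chromosome X. COL4A6 (ENSG00000197565, 107386780 to 107682727) had counts of 279 and 243 in EV and 569 and 618 in TET1-CD. This was a rise of 2.30-fold (log2 1.20, SE 0.09, edgeR adjusted p = 1.9e-05), and in each library at least 80.5% of its counts were assigned to ENST00000334504. COL4A5 (107683074 to 107940775) had normalised counts of 799 and 730 in EV and 889 and 971 in TET1-CD. It rose by 0.28 on the log2 scale (SE 0.08, edgeR adjusted p = 0.0295), which did not pass with DESeq2 (adjusted p = 0.0898), without TET1-CD replicate 1 (adjusted p = 0.106) or without TET1-CD replicate 2 (adjusted p = 0.262). COL4A3 and COL4A4, the pair of the kidney filter, start 452 bases apart on chromosome 2 and had at most 7 counts in any library.

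COL8A1 and COL8A2, the chains of type VIII collagen in vessel walls and in the cornea, went in opposite directions. COL8A1 (chromosome 3, 99357319 to 99518070) was abundant, with normalised counts of 4231 and 4850 in EV and 3566 and 3276 in TET1-CD, and fell by 0.41 on the log2 scale (SE 0.07, edgeR adjusted p = 0.00408). Its call was lost without TET1-CD replicate 2 (adjusted p = 0.0783). COL8A2 (ENSG00000171812, chromosome 1, 36560837 to 36590821) had counts of 8 and 6 in EV and 29 and 31 in TET1-CD, a rise of 4.28-fold (log2 2.10, SE 0.41, edgeR adjusted p = 0.00641). That call was lost without TET1-CD replicate 1 (adjusted p = 0.0778) and without TET1-CD replicate 2 (adjusted p = 0.0666), at a nearly equal log2 fold change. By the ratio of mean FPKM plus 0.1 the log2 difference was 1.30. COL10A1, the network collagen of hypertrophic cartilage, had no counts in either EV library and counts of 2 and 1 in TET1-CD.

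FACIT collagens sit on the surface of fibrils, and 4 of 10 were tested, of which 1 rose and 1 fell, beside 10.0% and 9.61% of all genes. COL9A2, a chain of type IX collagen of cartilage fibrils (ENSG00000049089, chromosome 1, 40766159 to 40783488), had counts of 55 and 57 in EV and 139 and 117 in TET1-CD. Neither TET1-CD library overlapped the EV libraries, and the rise was 2.31-fold (log2 1.21, SE 0.20, edgeR adjusted p = 0.00284). Without TET1-CD replicate 1 the log2 fold change was 0.99, just short of 2-fold, and by the ratio of mean FPKM plus 0.1 it was 0.95. COL9A3, the partner chain (ENSG00000092758, chromosome 20, 61447596 to 61472511), had counts of 213 and 203 in EV and 102 and 132 in TET1-CD, and fell by 0.82 on the log2 scale (SE 0.14, edgeR adjusted p = 0.00293).

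The fall of COL9A3 came with a limit in its counts. Of these counts 92.5% were assigned to ENST00000467819, which covers the 3′ end of the gene (61467771 to 61472511) and has no defined coding sequence. It had counts of 206 and 184 in EV and 89.3 and 123 in TET1-CD, whereas the full-length ENST00000343916 was at 0 in EV and at 3.56 and 5.38 counts in TET1-CD. Of the 993 exonic bases of ENST00000467819, 155 were shared with TCFL5 on the opposite strand, a transcription factor gene with counts of 198 and 170 in EV and 119 and 119 in TET1-CD (log2 fold change -0.61, edgeR adjusted p = 0.0104). Whether the counting used strand is not given in the sources used here, so reads of the shared stretch cannot be told apart. When transcripts without a defined coding sequence were left out, COL9A3 had too few counts for a test.

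COL12A1, a FACIT of dense connective tissue, had normalised counts of 2822 and 2307 in EV and 2416 and 2397 in TET1-CD (log2 fold change -0.09, SE 0.08, edgeR adjusted p = 0.482). The EV libraries differed from each other by more than the groups did. Without EV replicate 2 the gene passed as lower (log2 -0.23, adjusted p = 0.00239), and without EV replicate 1 its sign turned (log2 0.05, adjusted p = 0.477). COL16A1, found near dermal and cartilage fibrils, had normalised counts of 191 and 217 in EV and 172 and 181 in TET1-CD, which did not overlap but did not pass the test (log2 fold change -0.20, SE 0.12, edgeR adjusted p = 0.288). The other 6 FACIT genes had at most 3 counts in any library.

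Type VI collagen forms beaded filaments that link cells to the surrounding matrix, and its classic heterotrimer combines chains from COL6A1, COL6A2 and COL6A3. COL6A1 and COL6A2 lie on chromosome 21, at 47401651 to 47424964 and 47518011 to 47552763. COL6A1 had normalised counts of 7635 and 7666 in EV and 11470 and 11746 in TET1-CD, and rose by 0.60 on the log2 scale (SE 0.05, edgeR adjusted p = 4.7e-05). COL6A2 had normalised counts of 7210 and 7610 in EV and 8342 and 8311 in TET1-CD. These did not overlap, and the log2 fold change of 0.17 (SE 0.05) lay just outside the threshold (edgeR adjusted p = 0.0501), which it passed with limma-voom (adjusted p = 0.0423), with no filter on low counts (adjusted p = 0.0274), with 10 counts required in every library (adjusted p = 0.0447), with library size only (adjusted p = 0.0365) and without EV replicate 1 or 2 (adjusted p = 0.0488 and 0.00195). It did not pass with DESeq2 (adjusted p = 0.0601), with RLE scaling (adjusted p = 0.0511), when transcripts without a defined coding sequence were left out (adjusted p = 0.0612) or without TET1-CD replicate 1 or 2 (adjusted p = 0.374 and 0.329). COL6A3 (ENSG00000163359, chromosome 2, 238232646 to 238323018), the chain with the longest globular part, had counts of 5 and 4 in EV and 66 and 82 in TET1-CD. It rose 16.2-fold in the fit (log2 4.02, SE 0.35, edgeR adjusted p = 5.2e-05), from near the limit of detection. By the ratio of mean FPKM plus 0.1, a scale that understates changes of low genes, its log2 difference was 1.81. COL6A5 and COL6A6, alternative chains of the family, had at most 2 counts.

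The summed normalised count of the beaded filament class was 15066 ± 306 in EV and 20011 ± 180 in TET1-CD (SD, n = 2), of which COL6A3 was a small part. Over all libraries 22.3% of COL6A1 counts lay in a retained-intron transcript, ENST00000498614, with counts of 1672 and 1960 in EV and 2137 and 2822 in TET1-CD.

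Type VII collagen, the product of COL7A1, forms the anchoring fibrils that hold an epithelium to the tissue below it. COL7A1 (chromosome 3, 48601506 to 48632700) had normalised counts of 5610 and 6439 in EV and 4739 and 4973 in TET1-CD, and fell by 0.31 on the log2 scale (SE 0.07, edgeR adjusted p = 0.012). The call was lost without TET1-CD replicate 1 (adjusted p = 0.184) or without TET1-CD replicate 2 (adjusted p = 0.0800). COL18A1, a multiplexin of basement membranes whose terminal fragment is endostatin (chromosome 21, 46825052 to 46933634), had normalised counts of 2508 and 2573 in EV and 3687 and 3821 in TET1-CD, and rose by 0.56 on the log2 scale (SE 0.05, edgeR adjusted p = 9.7e-05). Of the 8292 exonic bases of its transcripts found in GENCODE release 44, 18.8% were shared with SLC19A1. This is the folate carrier gene on the opposite strand, and its log2 fold change was -0.21 (edgeR adjusted p = 0.097). ENST00000400337, which held 94.5% of COL18A1 counts, was not found there, so its overlap with SLC19A1 was not measured. COL15A1, the other multiplexin, had at most 3 counts.

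COL13A1, a transmembrane collagen of cell adhesion sites (chromosome 10, 71561644 to 71724031), had normalised counts of 66.3 and 60.3 in EV and 91.3 and 84.6 in TET1-CD. The groups did not overlap, but the log2 fold change of 0.47 (SE 0.18) did not pass the threshold (edgeR adjusted p = 0.0979). COL25A1, another transmembrane gene, had at most 5 counts, and the unclassed COL26A1 and COL28A1 had at most 2.

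**Figure D2:**
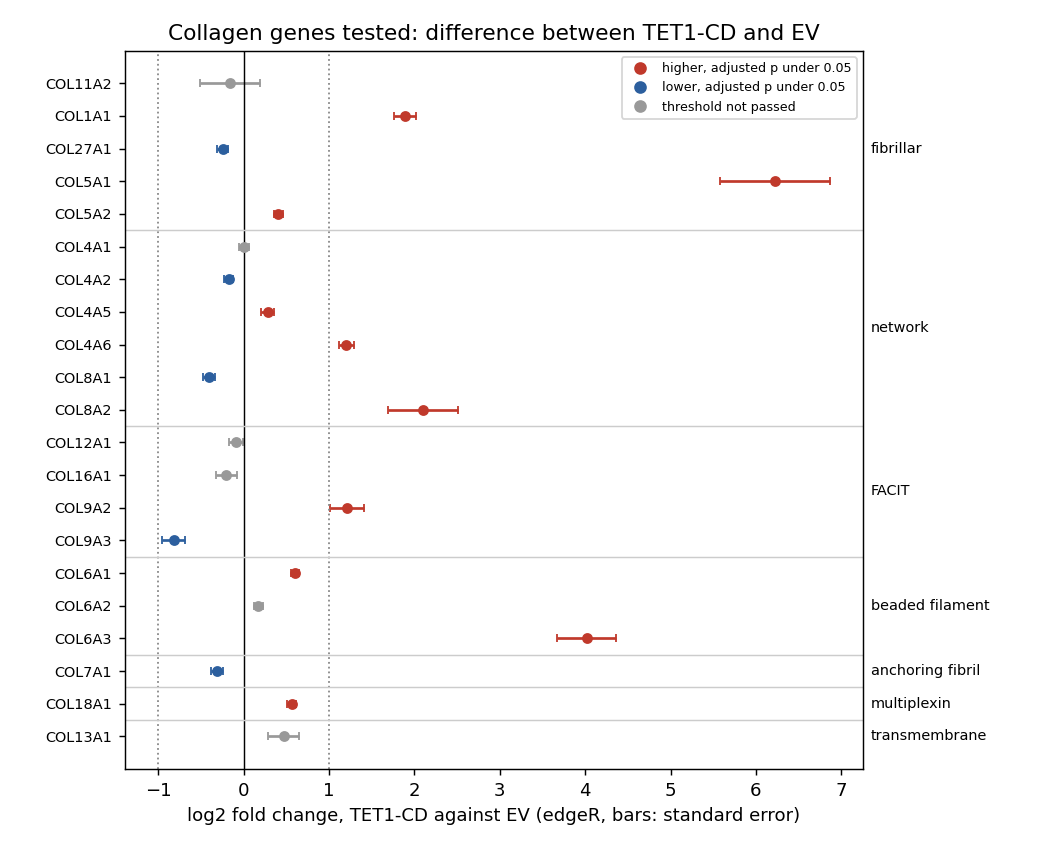
Log2 fold change of TET1-CD against EV (horizontal axis) with its standard error for the 21 collagen genes tested, coloured by edgeR call (red higher, blue lower, grey not passed). Dotted lines mark 2-fold. Each of the 3 largest classes by genes tested holds both red and blue points, and no blue point reaches the left dotted line.

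By class, the summed normalised count in TET1-CD was 1.48 times that in EV for multiplexins, 1.33 for beaded filament and 1.28 for fibrillar collagens. It was 0.908 for network, 0.934 for FACIT and 0.806 for anchoring fibril collagens. Network collagens thus made up 23.8% and 23.7% of the collagen total in EV, but 19.3% and 18.6% in TET1-CD, although 3 of their 6 tested genes rose, while the abundant COL8A1 and COL4A2 fell. The class sums were described without a test. In all, 12 of the 21 tested genes had both TET1-CD libraries above both EV libraries, 6 had both below and 3 overlapped, beside 30.8%, 30.2% and 39.0% of all genes tested. Without COL5A1, COL6A3 and COL8A2, whose place above was fixed by the filter, these counts were 9, 6 and 3 of 18. The shares of all genes tested were not recomputed without genes of this kind.

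Levels of partner chains were compared in FPKM, summed over transcripts not typed as non-coding. COL5A1 reached 0.013% and 0% of the COL5A2 level in EV and 0.266% and 0.350% in TET1-CD. COL6A3 went from 0.0391% and 0.0430% of the COL6A1 level to 0.334% and 0.365%. COL8A2 stood at 0.125% and 0.0962% of COL8A1 in EV and at 0.577% and 0.656% in TET1-CD. In these 3 types the scarcer chain named rose and yet stayed below 1% of its partner in every library. These 3 genes passed the filter only through their TET1-CD libraries, so their rise was fixed by that selection. COL5A3, a type V chain also scarce beside COL5A2, had a mean of 0.04 FPKM in both groups and was not tested.

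Ratios of chains that were both abundant shifted less, but this contrast was partly set by the filter and was not tested. COL4A1 was 43.8% and 44.04% of COL4A2 in EV and 49.5% and 50.5% in TET1-CD. COL6A2 was at 149% and 172% of COL6A1 in EV and at 114% and 115% in TET1-CD. This order depended on the transcripts summed, since over all transcripts, with the retained-intron form of COL6A1, COL6A2 was at 104% and 105% of COL6A1 in EV and at 80.8% and 77.6% in TET1-CD. COL4A6 was at 25.9% and 38.9% of COL4A5 in EV and at 59.8% and 48.9% in TET1-CD, with a wide spread within each group. These ratios are of RNA per length, and the protein chains were not measured.

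**Figure D3:**
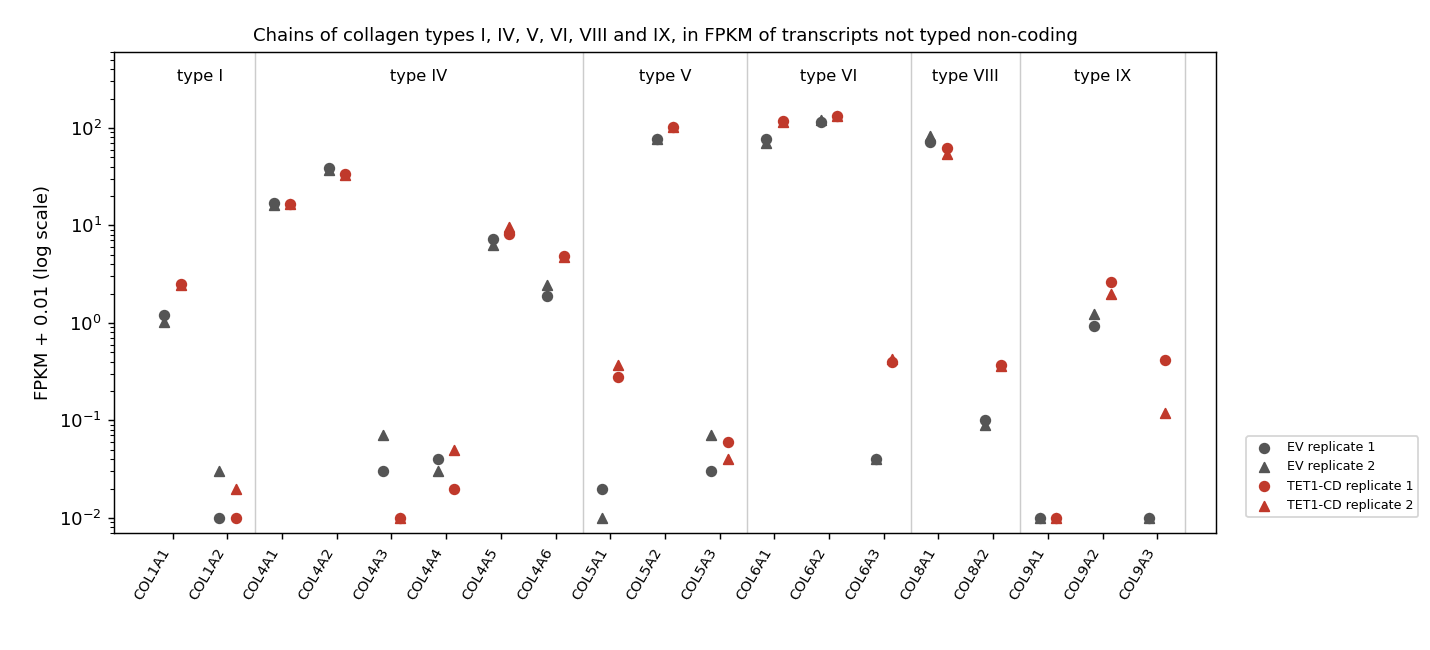
FPKM plus 0.01 (log scale, vertical axis) of the chains of 6 collagen types in each library (grey EV, red TET1-CD; circles replicate 1, triangles replicate 2), summed over transcripts not typed as non-coding. COL5A1, COL6A3 and COL8A2 lie far below their partner chains in all 4 libraries, also where they rose, and so does COL5A3, which was not tested.

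Most of the added COL8A2 counts were assigned to 1 of its forms. ENST00000397799, which spans the whole gene (36560840 to 36590823), had fewer than 0.01 counts in each EV library and 19.7 and 19.6 in TET1-CD. The printed COL8A2 window ends at the annotated start of this transcript. ENST00000303143, which starts inside the gene (36560842 to 36565850), had counts of 7.996 and 5.996 in EV and 9.32 and 11.4 in TET1-CD, which was also higher in both TET1-CD libraries. The spread of a transcript's assigned counts includes the uncertainty of the assignment, which the files do not give. For COL5A1, 93.8% of all counts went to ENST00000371817, at whose start the printed window ends. The windows were cut at annotated starts, and whether CG near a start bears on a rise was not tested. COL6A3 counts in TET1-CD went to ENST00000353578 (41.9 and 37.4) and to ENST00000472056 (22.9 and 39.0), and for COL1A1 at least 89.0% of counts in each library went to ENST00000225964.

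**Figure D4:**
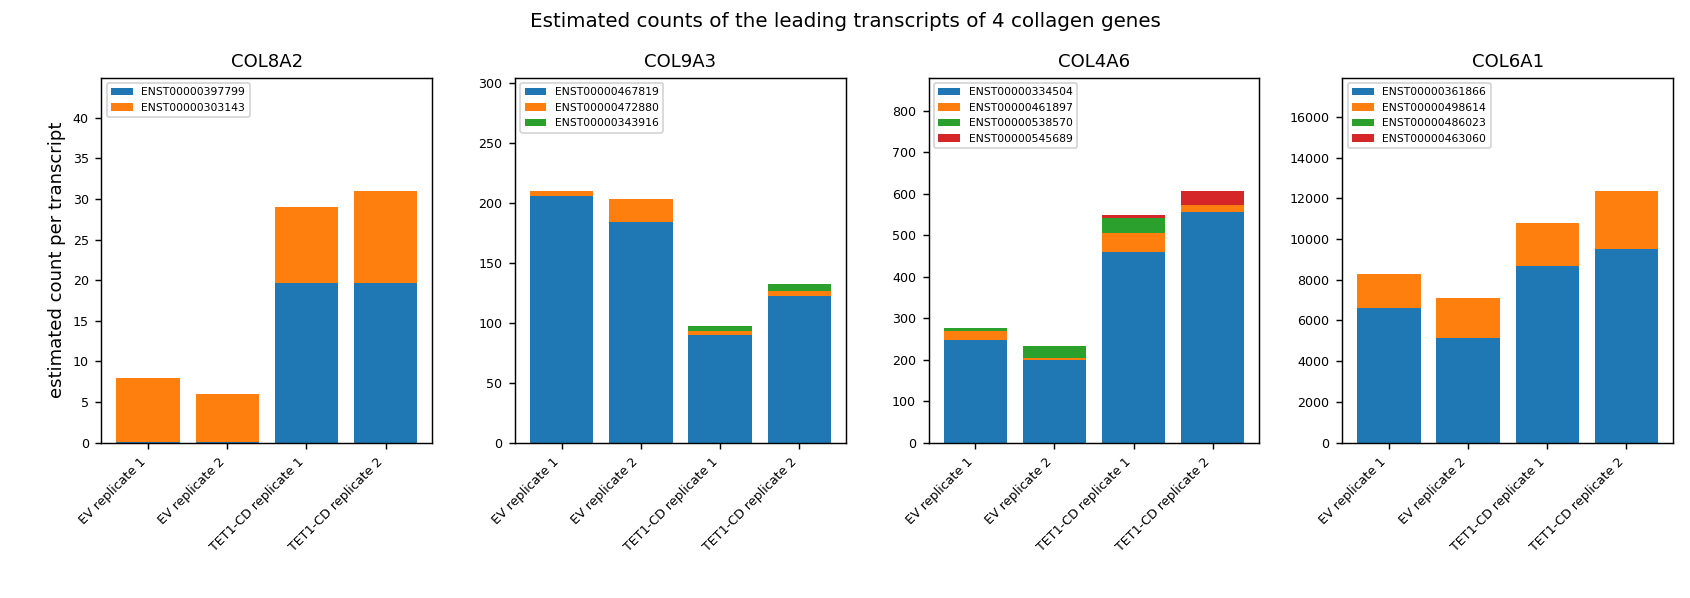
Estimated counts (vertical axis, a separate scale per gene) of up to 4 leading transcripts of COL8A2, COL9A3, COL4A6 and COL6A1, stacked per library. In TET1-CD, COL8A2 counts include a transcript that was near 0 in EV, while the shares within COL4A6 and COL6A1 are led by the same transcript in all 4 libraries.

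Collagen chains are hydroxylated, folded, exported, trimmed, cross-linked and taken up by other proteins, and 65 genes for these steps were listed. Of the 54 tested, 11 rose and 6 fell, beside 10.0% and 9.61% of all genes tested, and 37 did not pass. At 2-fold or more TLL1 rose and TLL2 and LOX fell, beside 2.72% and 1.04% of all genes. In chain hydroxylation and glycosylation, 3 of 14 rose and 2 fell. PLOD1, a lysyl hydroxylase of the helix, had counts of 3039 and 2599 in EV and 3628 and 4000 in TET1-CD (log2 fold change 0.45, edgeR adjusted p = 0.000339). PLOD2, the lysyl hydroxylase of the chain ends, went the other way, with counts of 17508 and 14480 in EV and 11123 and 12050 in TET1-CD (log2 fold change -0.45, edgeR adjusted p = 0.000402). In folding and export, 3 of 14 rose and 0 fell, led by PPIB, a prolyl isomerase (log2 fold change 0.21, edgeR adjusted p = 0.0225), and TMEM38B, an ion channel of the endoplasmic reticulum (0.28, adjusted p = 0.0399).

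Propeptide cleavage and fibril assembly had 9 genes tested, of which 2 rose and 2 fell. TLL1 and TLL2 encode related proteinases of the BMP1 family that trim procollagen. TLL1 had counts of 13 and 8 in EV and 25 and 37 in TET1-CD (log2 fold change 1.56, SE 0.39, edgeR adjusted p = 0.0209). Its count in EV replicate 2 lay below 10, so TLL1 passed the filter only with the help of its TET1-CD libraries. TLL2 had counts of 75 and 66 in EV and 21 and 36 in TET1-CD (log2 fold change -1.29, SE 0.26, edgeR adjusted p = 0.00759). BMP1, the main procollagen C-proteinase, had counts of 610 and 541 in EV and 396 and 492 in TET1-CD and fell by 0.36 on the log2 scale (edgeR adjusted p = 0.0178).

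Of the 5 lysyl oxidases, which cross-link collagen, LOX fell and LOXL4 rose. LOX had counts of 1233 and 1195 in EV and 430 and 463 in TET1-CD, a log2 fold change of -1.43 (SE 0.08, edgeR adjusted p = 3.5e-06). LOXL4 had counts of 215 and 189 in EV and 337 and 414 in TET1-CD, a log2 fold change of 0.91 (SE 0.11, edgeR adjusted p = 0.000367). LOXL2, by far the most counted of the family at 5290 to 6803 counts, did not pass (log2 fold change -0.15, edgeR adjusted p = 0.068).

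In degradation and uptake, 1 of 6 tested genes rose and 0 fell. This was MRC2, an endocytic collagen receptor, with counts of 2608 and 2117 in EV and 2778 and 3078 in TET1-CD (log2 fold change 0.33, edgeR adjusted p = 0.003). PEPD, a dipeptidase for collagen fragments, followed without passing (0.23, adjusted p = 0.127). Among collagen receptors, 1 of 6 tested genes rose and 1 fell. ITGA2, the collagen-binding integrin subunit, had a log2 fold change of 0.25 (edgeR adjusted p = 0.014), and DDR1, a receptor tyrosine kinase for collagen, one of -0.32 (edgeR adjusted p = 0.0141).

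**Figure D5:**
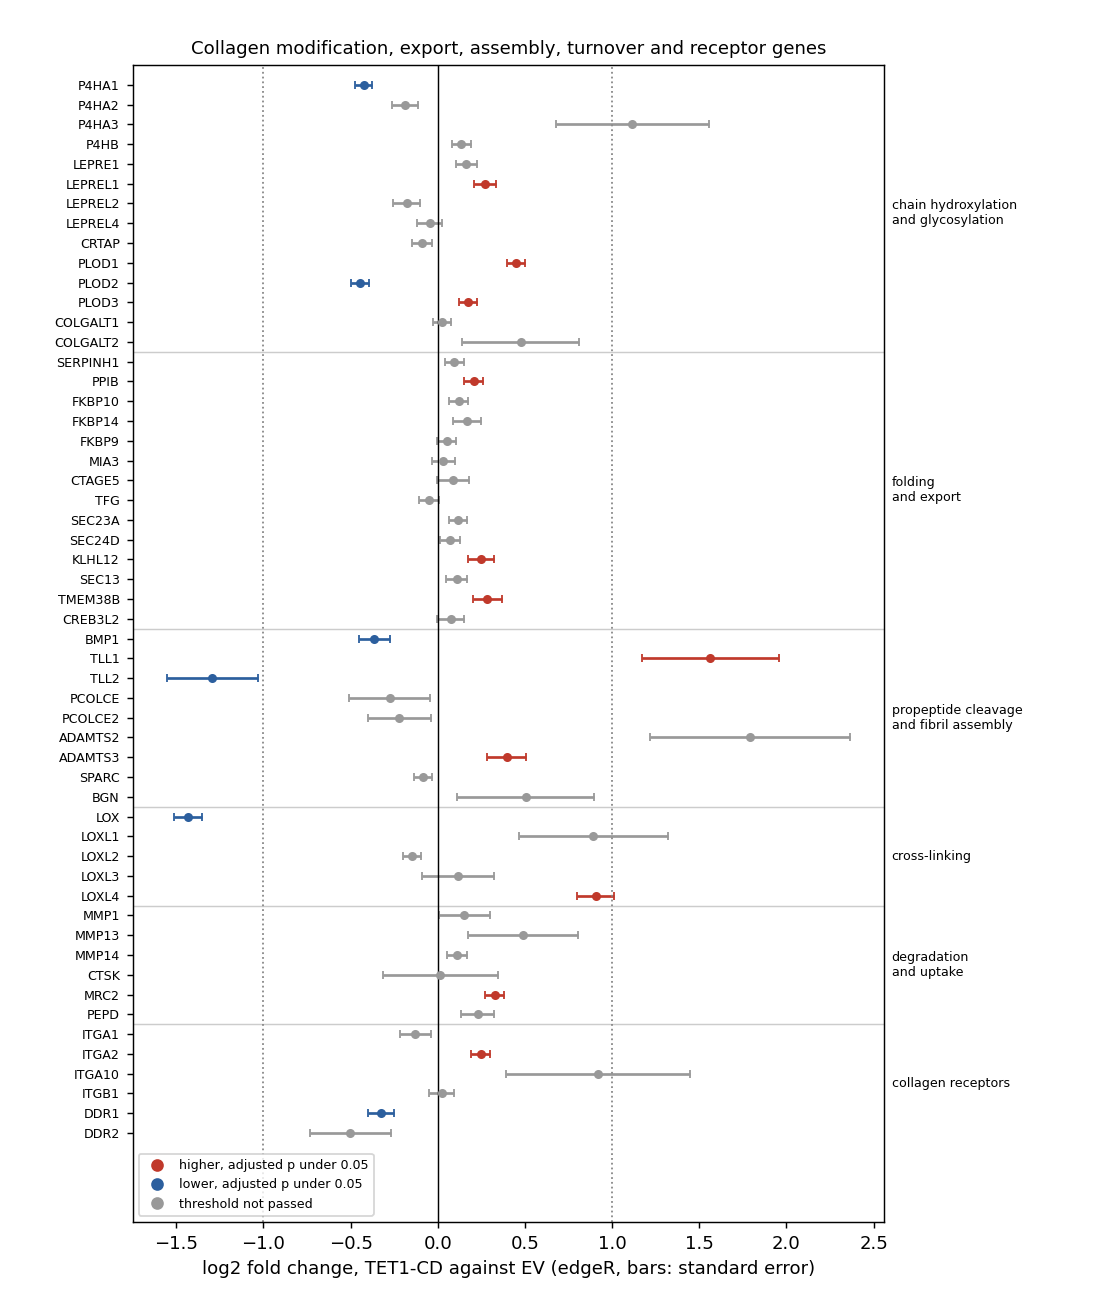
Log2 fold change of TET1-CD against EV (horizontal axis) with its standard error for the 54 tested genes of collagen modification, export, assembly, cross-linking, turnover and reception, coloured by edgeR call (red higher, blue lower, grey not passed). LOX and TLL2 lie left of the 2-fold line and TLL1 lies right of it, while most points stay near 0.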

How the data were processed

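The RNAseq data comprised 2 EV and 2 TET1-CD libraries from T24 cells. The authors deposited, for each transcript and library, an estimated (expected) count and an FPKM value. The submitters' processing notes name cutadapt 1.9.1, HISAT2 2.0.1, HTSeq 0.6.1, DESeq2 and hg19 (GRCh37), and the tool that estimated counts per transcript is not given in the sources used here. Deposited FPKM values were used for levels between genes, and for tests the deposited estimated counts were added up within a gene identifier and rounded.

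TET1-CD was compared with EV over all genes with edgeR 4.0.16 (glmQLFit and glmQLFTest, TMM, filterByExpr, no block) in R 4.3.3, with Benjamini-Hochberg adjustment over 14573 genes. A called gene had an adjusted p under 0.05. The script was tested on simulated data. Collagen genes were named where called or among the 5 highest by mean FPKM, and pathway genes where called at 2-fold or among the 2 smallest p of a list, with LOXL2 and genes not passing chosen after their values were seen. The members and all gene lists were chosen with earlier results of these data known. Transcript types came from GENCODE release 44 on GRCh37, where 311 of the 354 transcripts were found. Alternatives were DESeq2 1.42.0, limma-voom (limma 3.58.1), RLE or library size scaling, other filters, a replicate block, mean FPKM with a pseudocount of 0.1, no fold limit and leaving out each library. Leaving out transcripts without a defined coding sequence was an alternative chosen after seeing the data.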

Additional observations from a re-analysis of the deposited data

How the results depend on the processing

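The count of collagen genes higher by at least 2-fold was 6 with DESeq2, RLE scaling, library size only, no filter, the replicate block, limma-voom and without transcripts lacking a defined coding sequence, and in each case these were the 6 genes of the report. It was 3 of 18 when every library had to hold 10 counts, since COL5A1, COL6A3 and COL8A2 then could not be tested, and 10 higher and 5 lower with no fold limit. Leaving out 1 library gave 4 to 6 higher and 0 lower, the lone library being assumed to vary like the other group. The 4 came without TET1-CD replicate 1, where COL8A2 and COL9A2 dropped out. Among the values of single genes, 219 of those with a test kept direction and side of the threshold, 16 fell short of it, 8 newly passed and 5 turned, while with mean FPKM, which has no test, 12 stayed within the replicate spread and 9 moved.

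Directions turned for 3 genes that did not pass with all 4 libraries. COL4A1 was at -0.00049 with no filter, and ranged from -0.032 to 0.028 when libraries were left out (lowest without EV replicate 2). COL12A1 ranged from -0.232 to 0.0527 (above 0 without EV replicate 1). COL11A2 ranged from -0.677 to 0.552 (above 0 without EV replicate 2), and was at 0.068 without transcripts lacking a defined coding sequence (all log2), and the cause was not tested. No pairing by replicate number was visible, since the deviations of same-numbered libraries had a correlation of 0.007 over genes. Whether same-numbered libraries shared a culture is not given in the sources used here. With the replicate block COL6A2 passed (adjusted p = 0.0463) and no other collagen call changed. Collagens with at most 7 counts could not be compared reliably at this depth, and 2 libraries per group limit all p-values.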

Other observations

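Genes that are not collagens but carry a collagen domain were listed after the data had been seen, 26 in all, of which 11 were tested, 1 rose and 2 fell with edgeR, beside 10.0% and 9.61% of all genes tested, and 8 did not pass, while at a fold change of at least 2 there were 0 in either direction. CTHRC1, a secreted glycoprotein with a short collagen repeat, had counts of 150 and 165 in EV and 231 and 264 in TET1-CD, a log2 fold change of 0.66 (edgeR adjusted p = 0.0089). C1QTNF1, a secreted protein related to complement C1q, had counts of 1842 and 1613 in EV and 1084 and 1103 in TET1-CD, a log2 fold change of -0.64 (edgeR adjusted p = 0.000146). C1QTNF6, of the same family, had counts of 90 and 66 in EV and 39 and 48 in TET1-CD, a log2 fold change of -0.82 (edgeR adjusted p = 0.0219). MARCO, COLEC12 and MBL2, collagen-stalked receptors and lectins, had at most 1 count in any library, while the related COLEC10 had 3 to 7 and the macrophage scavenger receptor MSR1 109 to 142.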
